A study of Homo sapiens with 6 samples.

Results

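Ribosome biogenesis factors were followed as a group of 46 listed genes, taken by name from the deposited gene tables. All 46 were among the 12301 genes listed in both tables and tested here, of 13289 listed in either, and all 46 passed the filter on low counts. The RNA-seq counts come from the human line NB4, established from an acute promyelocytic leukemia, whose cells differentiate into granulocyte-like cells with all-trans retinoic acid (ATRA). Cells had either a control construct or a short hairpin RNA, hairpin 1 or hairpin 2, that targets SMARCD2, which belongs to the SWI/SNF (BAF) chromatin remodelling complexes. Each of the 3 constructs was kept in the vehicle DMSO or in ATRA at 1 µM, which gave 6 libraries: 1 control and 2 knockdown libraries in each treatment. The sources used here give neither the length of treatment nor whether the libraries came from separate cultures, so p-values measure only the spread among these libraries.

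Ribosomes are built mainly in the nucleolus. RNA polymerase I transcribes a long precursor of the ribosomal RNAs, which small nucleolar ribonucleoproteins modify and cut while the small subunit (SSU) processome folds it around the first ribosomal proteins. The particle then splits into a pre-40S and a pre-60S branch, each matured by its own GTPases, helicases and export factors, and proliferating leukemia cells are known for a high output of this pathway, which MYC activates through the E-box motif.

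Library totals ran from 29291209 to 58099733 counts, and a member held between 656 and 96640 counts in a library. Levels are given as CPM, counts scaled to a common library size with TMM factors, and therefore as a share of the counted RNA, not as an amount per cell. SMARCD2 stood at 95.5 CPM in the control construct, 39.0 with hairpin 1 and 25.7 with hairpin 2 in DMSO, and at 122, 64.2 and 35.6 in ATRA. The myeloid markers were present, 8 of 8 in DMSO and 7 of 8 in ATRA, where ELANE was not listed, with summed levels of 10300 to 10600 and 5100 to 6740 CPM. The 5 maturation markers together rose from 150 to 181 CPM in DMSO to 6120 to 7040 CPM in ATRA. The defining lymphoid markers CD2 and MS4A1 and the erythroid markers HBB and HBA1 were not listed in either table.

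Under ATRA the group fell. Of the 46 members, 39 were lower in ATRA than in DMSO, only RRP12 was higher, and 6 did not pass the test (edgeR quasi-likelihood test over the 3 constructs, Benjamini-Hochberg adjusted p under 0.05). ATRA changed much of the measured transcriptome, with 37.8% of all tested genes lower and 36.2% higher, so the count is read against that background. The median log2 fold change of the members was -0.46, against -0.01 over all tested genes. In 40 members all 3 ATRA libraries lay below all 3 DMSO libraries, as in 39.5% of all tested genes, and in 2 members, RRP12 and DDX18, all lay above, as in 37.6%. Falls of at least 2-fold were limited to 3 members, GNL3, NPM1 and FBL. In bulk RNA, fewer cells with a transcript and less of it per cell cannot be told apart.

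The same was seen within each construct. The median log2 ratio of ATRA to DMSO over the members was -0.50 in the control construct, -0.50 with hairpin 1 and -0.37 with hairpin 2. Over all tested genes it was -0.02, -0.02 and -0.01. In the same order 42, 44 and 42 of the 46 members were lower in ATRA. Summed over the members, the level was 8078.5 CPM in the control construct, 8493.1 with hairpin 1 and 8071.2 with hairpin 2 in DMSO, and 5728.6, 5953.6 and 5968.7 in ATRA. The summed levels of the treatments did not overlap. In these sums NPM1 alone held 1490 to 1603 CPM in DMSO and 719 to 763 in ATRA. NCL held 1224 to 1289 CPM in DMSO and 1017 to 1072 in ATRA. Scaling by total counts alone shifted the median of all genes to -0.14, turned the split of all called genes from 4450 higher and 4650 lower to 3637 higher and 5722 lower, and took the number of lower members from 39 to 44.

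**Figure D1:**
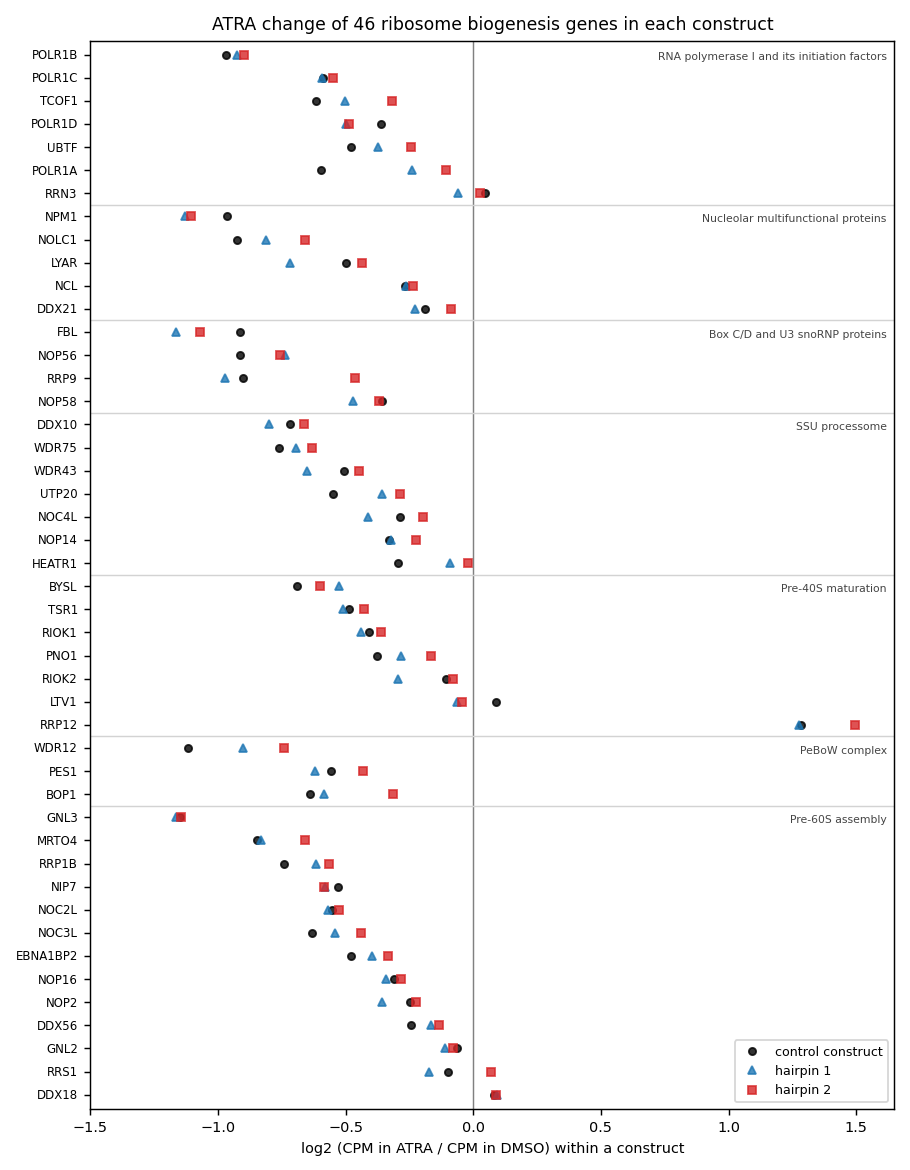
The log2 ratio of CPM in ATRA to CPM in DMSO (x axis) is plotted for each of the 46 members (y axis, grouped by role), with 1 point for each of the 3 constructs and a line at no change. Most points lie left of the line in all constructs, RRP12 lies far to the right, and RRN3, LTV1, RRS1 and DDX18 lie at or near the line.

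A promoter motif that had no part in choosing the genes was found in some of the members. RefSeq promoter windows of the build GRCh38.p14, from 250 bases before to 50 after the gene start, were used for 38 members. BOP1, DDX18, NOLC1, NOP58, RRP12, RRP1B, RRS1 and TCOF1 were not analysed here, so the risen RRP12 and the uncalled DDX18 and RRS1 are in no comparison by motif. The canonical E-box CACGTG, which reads the same on both strands and is bound by MYC with its partner MAX among other factors, was found in 17 of these 38 members (44.74%), in 12.64% of the 9550 tested genes with a window and in 8.775% of the 27305 genes in the promoter table. The 30 bases around it are shown 5′ to 3′ on the gene's strand, with the E-box in capitals, for 4 members that fell strongly and 2 that did not pass the test, so that both outcomes can be seen with the same motif.
GNL3: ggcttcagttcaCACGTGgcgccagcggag
FBL: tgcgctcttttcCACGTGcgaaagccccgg
RRP9: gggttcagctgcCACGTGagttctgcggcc
MRTO4: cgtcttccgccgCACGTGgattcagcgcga
GNL2: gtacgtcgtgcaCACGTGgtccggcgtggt
LTV1: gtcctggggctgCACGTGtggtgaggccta
These stretches lie at chr3:52686026-52686055 on the plus strand for GNL3, chr19:39846356-39846385 on the minus strand for FBL, chr3:51941892-51941921 on the minus strand for RRP9, chr1:19251807-19251836 on the plus strand for MRTO4, chr1:37595917-37595946 on the minus strand for GNL2 and chr6:143843354-143843383 on the plus strand for LTV1.

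Members with the motif moved over nearly the same range as members without it. The 17 with an E-box had a median log2 fold change of -0.54 in ATRA, from -1.15 to -0.01, and 15 of them were lower. The 21 without it had a median of -0.45, and 19 of them were lower. The ETS-type motif CCGGAAGT, searched on both strands, was found in 10 of the 38 members (26.32%) and in 9.885% of the tested genes, and the NRF1-type motif in 9 members (23.68%) and 13.1%. A match describes the letters in the window and does not show that a factor binds there. The transcript of MYC itself stood at 1033 CPM in the control construct, 1134 with hairpin 1 and 998 with hairpin 2 in DMSO, and at 192, 216 and 233 in ATRA, a log2 fold change of -2.31 ± 0.07 (SE, n = 3 constructs, edgeR adjusted p = 2.03e-08). Its part in the fall of the members was not tested.

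At the start of the pathway, 6 of the 7 genes for RNA polymerase I and its initiation factors fell, with a median log2 fold change of -0.45. POLR1B, a large core subunit of the polymerase, was measured at 85.4, 85.4 and 86.2 CPM in DMSO in the control construct, hairpin 1 and hairpin 2, and at 43.7, 44.9 and 46.3 in ATRA. The libraries of each treatment lay close together and the treatments did not overlap. The log2 fold change was -0.93 ± 0.05 (SE, n = 3, edgeR adjusted p = 3.31e-07).

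POLR1C and POLR1D, subunits shared with RNA polymerase III, fell by 0.58 and 0.45 on the log2 scale. TCOF1, the nucleolar protein treacle, fell by 0.48, and UBTF, which binds the ribosomal DNA promoter, by 0.36. POLR1A, the other large core subunit, fell by 0.31 (adjusted p = 0.0105), with log2 ratios of -0.60 in the control construct but -0.24 and -0.11 with the hairpins.

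RRN3, the factor that brings the polymerase to the promoter, differed from the rest of this role. It held 92.2, 97.3 and 94.8 CPM in DMSO and 95.3, 93.4 and 96.6 in ATRA, in the control construct, hairpin 1 and hairpin 2. These ranges overlapped almost fully. Its log2 fold change was 0.00, with a 95% interval from -0.10 to 0.11, and under scaling by total counts it became -0.13 and was called lower (adjusted p = 0.0312). RRN3 has 3 named pseudogenes in GENCODE v29, as do NOP56 and NIP7, and 12 members have at least 1. The sources used here do not say how reads from such copies were assigned.

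All 5 nucleolar proteins with several functions fell. NPM1, a histone and ribosome chaperone whose gene is often mutated in other myeloid leukemias, had the highest level per length among the members, at 594 CPM per kilobase of exon in DMSO and 283 in ATRA. It stood at 1490, 1603 and 1548 CPM in DMSO and at 763, 733 and 719 in ATRA. Every ATRA library was far below every DMSO library, and the log2 fold change was -1.07 ± 0.05 (SE, n = 3, adjusted p = 2.35e-07). NPM1 has 45 named pseudogenes, the most of any member, so its level is uncertain by what was counted at these copies.

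NOLC1, a chaperone of small nucleolar ribonucleoproteins, was at 303, 301 and 294 CPM in DMSO and at 159, 172 and 186 in ATRA. The values were level in DMSO and spread out in ATRA, without overlap, for a log2 fold change of -0.80 ± 0.06. LYAR fell by 0.55. NCL (nucleolin), the second in level per length at 312 CPM per kilobase in DMSO and 261 in ATRA, fell by only 0.26. The helicase DDX21 fell by 0.17 (adjusted p = 0.0175), a call that was lost when the control or the hairpin 1 library of either treatment was left out (adjusted p from 0.0533 to 0.0881). The order of the 2 leading members by level per length, NPM1 and then NCL, was the same in both treatments, but their distance shrank.

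The box C/D and U3 proteins, which carry the guide RNAs for methylation and cleavage of the precursor, had the lowest median of any role, -0.79, and all 4 fell. FBL (fibrillarin), the methyltransferase of the box C/D particle, stood at 130, 143 and 120 CPM in DMSO and at 69.1, 63.5 and 56.9 in ATRA. The treatments did not overlap, and the log2 fold change was -1.06 ± 0.08 (SE, n = 3, adjusted p = 5.11e-06). The core protein NOP56 was at 409, 384 and 391 CPM in DMSO and at 217, 230.5 and 232 in ATRA. Its fall of 0.80 on the log2 scale was larger than that of its partner NOP58, which fell by 0.40, and the 95% intervals of these values, -0.91 to -0.69 and -0.50 to -0.30, did not overlap. RRP9, specific to the U3 particle, fell by 0.78, and by only 0.46 in hairpin 2, where its DMSO level was the lowest of the 3.

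**Figure D2:**
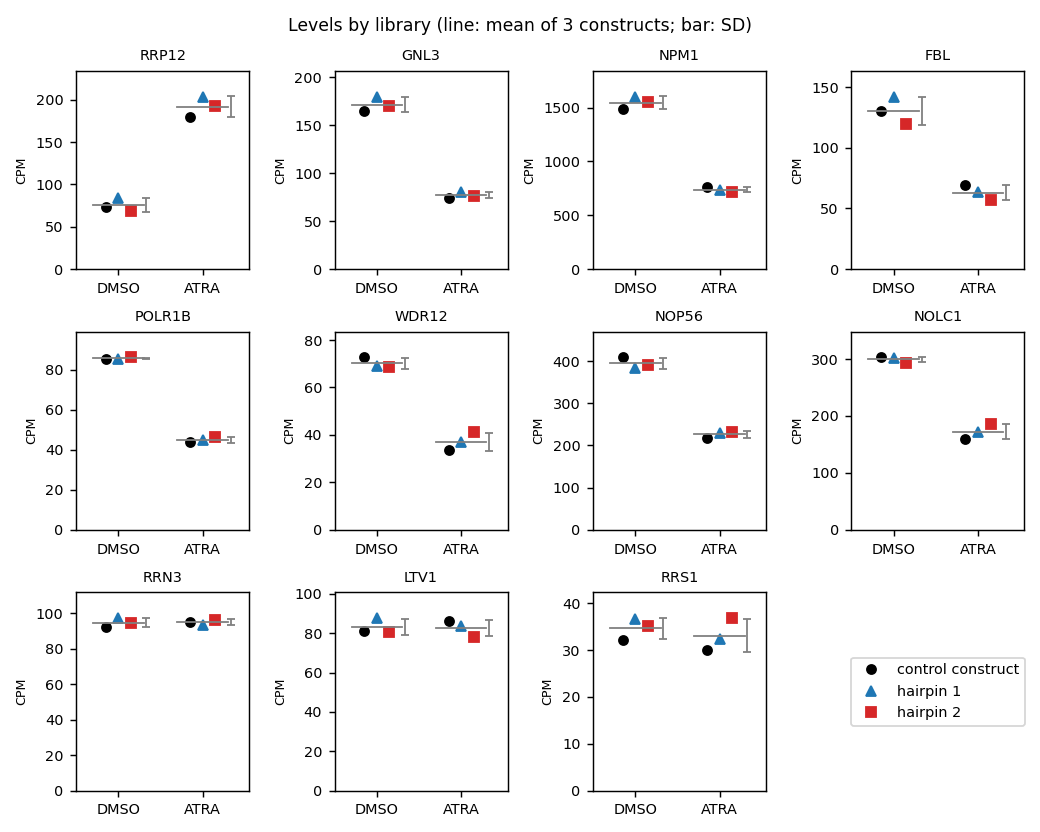
CPM (y axis, starting at 0 in each panel) is plotted for 11 members in DMSO and ATRA (x axis), with 1 symbol per construct, a line at the mean of the 3 constructs and a bar for the SD. RRP12 is higher in ATRA, 7 members are lower without overlap, and RRN3, LTV1 and RRS1 overlap between the treatments.

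In the SSU processome, which assembles on the newly made precursor, 6 of 7 members fell, with a median of -0.40. The helicase DDX10 fell by 0.73, and WDR75 and WDR43, subunits of the complex that first binds the precursor, by 0.70 and 0.54. UTP20 fell by 0.40, NOC4L by 0.30 and NOP14 by 0.29. HEATR1, another early subunit, did not pass the test, with a log2 fold change of -0.13 (adjusted p = 0.0718). Its ratio was -0.29 in the control construct and -0.09 and -0.02 with the hairpins, and it passed without the hairpin 2 library in DMSO (-0.18, adjusted p = 0.0283). Exons of HEATR1 overlap those of LGALS8 on the other strand over 23.2% of their length. Such overlaps were found in 18 members. The largest single one covered 20.7% of exon length in TSR1, 20.2% in NIP7, 18.8% in EBNA1BP2 and 17.1% in NOP14. The sources used here do not say whether counting used strand.

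The pre-40S factors were mixed, with 5 of 7 lower and 1 higher, and a median of -0.27. BYSL, which joins the small subunit early, fell by 0.60, TSR1, a GTPase-like factor that holds the subunit inactive, by 0.48, the kinase RIOK1 by 0.40 and the RNA-binding PNO1 by 0.27. RIOK2, a kinase that helps release the late factors, fell by 0.16 (adjusted p = 0.0365), and this call was lost without the control, hairpin 1 or hairpin 2 library in DMSO or the hairpin 1 library in ATRA (adjusted p from 0.0513 to 0.171). LTV1, an export factor of the pre-40S particle, did not move beyond its spread: it held 81.0, 87.6 and 80.5 CPM in DMSO and 86.2, 83.8 and 78.0 in ATRA. Its log2 fold change of -0.01 had a 95% interval from -0.14 to 0.12, and it was 0.01 under DESeq2's size factors and -0.14, called lower (adjusted p = 0.0459), under scaling by total counts.

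RRP12, a repeat protein that takes part in nuclear maturation and export of the particles, went the other way from the group. It stood at 73.5 CPM in the control construct, 84.2 with hairpin 1 and 68.5 with hairpin 2 in DMSO, and at 179, 204 and 193 in ATRA. All 3 ATRA libraries were more than 2-fold above the DMSO library of their construct, with log2 ratios of 1.29, 1.28 and 1.495. The fitted log2 fold change was 1.35 ± 0.08 (SE, n = 3, adjusted p = 7.19e-07), and by level per length RRP12 moved from rank 38 of the 46 members in DMSO to rank 12 in ATRA. An antisense transcript overlaps 6.09% of its exon length. Reads from the strands cannot be told apart where counting did not use strand.

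The 3 proteins of the PeBoW complex, which is needed to process the RNA of the large subunit, all fell. WDR12 was at 72.7, 69.1 and 68.7 CPM in DMSO and at 33.5, 36.9 and 41.1 in ATRA, in the control construct, hairpin 1 and hairpin 2. Without overlap, the fall was deepest in the control construct, and the log2 fold change was -0.92 ± 0.07 (SE, n = 3, adjusted p = 6.54e-06). PES1 fell by 0.54 and BOP1 by 0.51 on the log2 scale.

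Of the 13 pre-60S assembly factors, 10 fell, with a median of -0.40. GNL3 (nucleostemin), a nucleolar GTPase abundant in stem and tumour cells, had the largest fall of all members: 164, 180 and 169 CPM in DMSO became 74.0, 80.1 and 76.5 in ATRA. The constructs were alike, with log2 ratios of -1.15, -1.17 and -1.15, and the fitted value was -1.15 ± 0.05 (SE, n = 3, adjusted p = 9.74e-08). MRTO4, which holds the place of the ribosomal stalk protein, fell by 0.78 and RRP1B by 0.64. NIP7, NOC2L and NOC3L, of which the NOC proteins act in early transport of the particle, fell by between 0.54 and 0.57. Smaller falls were seen in EBNA1BP2 (0.40), NOP16 (0.31), the RNA methyltransferase NOP2 (0.28) and the helicase DDX56 (0.18).

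The other 3 pre-60S factors did not pass the test. The GTPase GNL2 had a log2 fold change of -0.09, although its 3 ATRA libraries, at 73.6, 72.9 and 74.2 CPM, all lay below those in DMSO at 76.9, 78.8 and 78.3. RRS1, which takes part in placing the 5S RNA, was at 32.2, 36.6 and 35.1 CPM in DMSO and 30.0, 32.5 and 36.8 in ATRA, and the ranges overlapped. The helicase DDX18 was slightly above DMSO in each construct, with log2 ratios of 0.08, 0.09 and 0.09, and its fitted value of 0.09 (adjusted p = 0.0823) became 0.10 with adjusted p = 0.043 under DESeq2 and -0.04 under scaling by total counts. DDX18 has 5 named pseudogenes.

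Beyond the members, 125 further ribosome biogenesis genes of a separate list were tested, of which 76 fell, 19 rose and 30 did not pass, with a median log2 fold change of -0.28. The lowest were NLE1 (-1.35), which acts in pre-60S maturation, POLR1E (-1.16), a polymerase I subunit, and DDX31 (-1.10), a helicase. The highest were EXOSC4 (0.72), a subunit of the RNA exosome, RIOK3 (0.71), a kinase bound to the pre-40S particle, and NOP10 (0.66), a core protein of the box H/ACA particle. Among the proteins of the finished cytosolic ribosome, 76 of 81 genes fell and 2 rose, with a median of -0.57. Of 75 mitochondrial ribosomal protein genes, 37 fell and 16 rose, with a median of -0.14. No test was made between these lists.

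**Figure D3:**
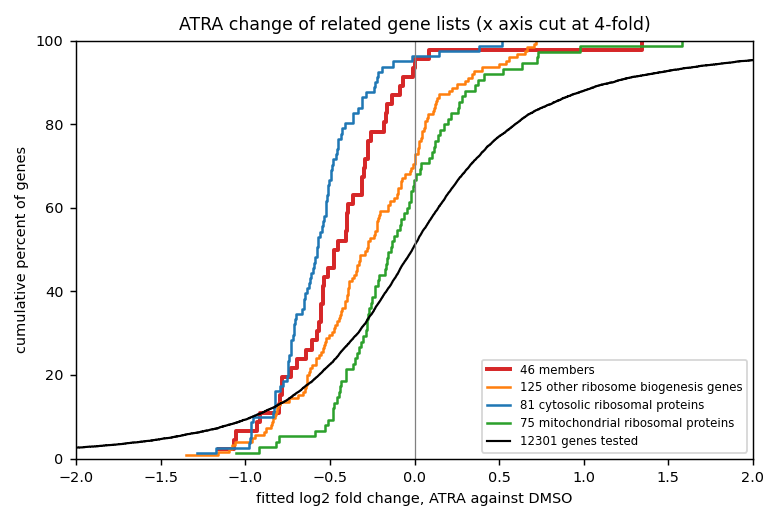
The cumulative percent of genes (y axis) is plotted against the fitted log2 fold change of ATRA against DMSO (x axis, drawn from -2 to 2) for the members, the 125 other ribosome biogenesis genes, 81 cytosolic and 75 mitochondrial ribosomal protein genes and all 12301 genes tested. The curve of the members, with a median of -0.46, lies between those of the other biogenesis genes, at -0.28, and the cytosolic ribosomal proteins, at -0.57.

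The next comparison asked whether loss of SMARCD2 changed these genes in cells that had not been given ATRA. In DMSO no member passed the edgeR test for knockdown against control, as was so for 0.0% of all tested genes. SMARCD2 itself did not pass (-1.55 ± 0.32, edgeR adjusted p = 0.393), so a missing call does not show that a gene was unchanged. At an unadjusted p under 0.05 there were 0 members, of 868 genes in all. DESeq2 and limma-voom called 0 members too, with 38 and 0 of all 12301 genes called. The median log2 fold change of the members was 0.04, with a range from -0.17 to 0.16, and all 46 intervals at the 95% level lay within a 1.5-fold change either way. The median rested on 1 library: it was -0.01 without hairpin 1 and 0.09 without hairpin 2 in DMSO. Both hairpins were above the control in 19 members and below it in 9, and they lay on opposite sides in 18. This count was not made over all tested genes, of which 6195 of 12301 had a fitted value above 0, against 33 members.

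The widest departures in DMSO were small. POLR1A held 75.1 CPM in the control construct, 66.7 with hairpin 1 and 66.5 with hairpin 2, a log2 fold change of -0.17 ± 0.08 (adjusted p = 0.719). RRS1 was at 32.2, 36.6 and 35.1 CPM (0.16 ± 0.10), and LYAR at 89.1, 103 and 95.2 (0.16 ± 0.09). POLR1D was at 189, 210 and 197 CPM (0.11 ± 0.07). In POLR1A the hairpins lay close together below the control, yet none of these departures passed the test after adjustment.

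In ATRA again no member passed the edgeR test for knockdown against control, against 0.00813% of all tested genes, which is 1 gene. SMARCD2 did not pass here either (-1.29 ± 0.31, edgeR adjusted p = 0.321). At an unadjusted p under 0.05 there were 4 of the 46 members, among 1329 of the 12301 tested genes, which is no larger a share. DESeq2 and limma-voom called 0 members, with 52 and 1 of all 12301 genes called. The members' median was 0.07, with a range from -0.20 to 0.29, against a median of 0.00 over all tested genes. Both hairpins lay above the control in 32 members, below it in 5 and on opposite sides in 9. This count was not made over all tested genes, of which 6298 of 12301 had a fitted value above 0, against 38 members. All 46 intervals lay within a 1.5-fold change.

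The 4 members at an unadjusted p under 0.05 all had higher levels with both hairpins. TCOF1 was at 81.0 CPM in the control construct and at 95.7 and 102 with the hairpins, a log2 fold change of 0.29 ± 0.08 (edgeR adjusted p = 0.337). BOP1 was at 129, 149 and 159 CPM (0.25 ± 0.09, adjusted p = 0.4), POLR1A at 49.7, 56.4 and 61.7 (0.25 ± 0.08, adjusted p = 0.388) and WDR12 at 33.5, 36.9 and 41.1 (0.22 ± 0.09, adjusted p = 0.433). In each of these genes the control library was the lowest and hairpin 2 the highest, and none held up against adjustment over all genes. In the authors' deposited table for ATRA, 1 member was under an adjusted p of 0.05, TCOF1, with a log2 fold change of 0.24 and adjusted p = 0.0397, among 535 of 12838 genes. In the authors' deposited table for DMSO 0 members were, among 146 of 12752 genes. The sources do not say whether that test took the 2 count columns of a library, taken here as sequencing runs, as separate samples.

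**Figure D4:**
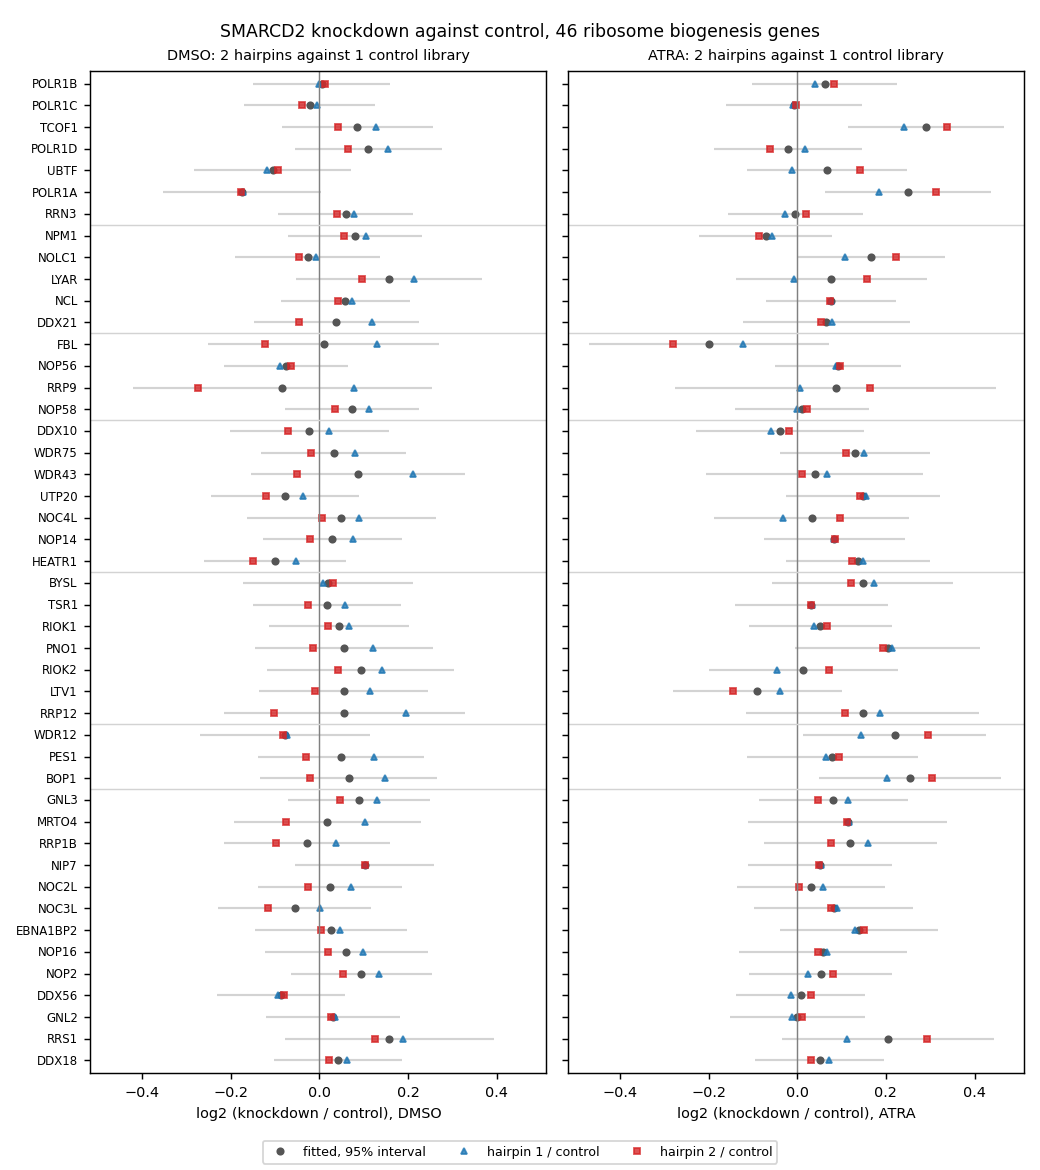
The log2 ratio of knockdown to control (x axis) is plotted for the 46 members (y axis) in DMSO and in ATRA, with the fitted value and its 95% interval in grey and the ratio of each hairpin to the control library as a symbol. The fitted values stay between -0.17 and 0.16 in DMSO and between -0.20 and 0.29 in ATRA, and no member passed the test after adjustment.

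Over both treatments together no member passed the edgeR test either, as for 0.0% of all tested genes, SMARCD2 among them (-1.42 ± 0.22, edgeR adjusted p = 0.377). At an unadjusted p under 0.05 there were 2 members, TCOF1 (0.18 ± 0.06) and RRS1 (0.18 ± 0.07), of 1003 genes in all. DESeq2 and limma-voom called 0 members, with 48 and 0 of all 12301 genes called. The fitted value was above 0 in 39 of the 46 members, with a median of 0.05, and in 6294 of the 12301 tested genes, with a median of 0.00. GNL3 (0.09 ± 0.05) and EBNA1BP2 (0.08 ± 0.06) lay above the control with both hairpins in both treatments, each with an adjusted p of at least 0.682. In the control libraries 54.6% and 53.1% of the counts came from the column taken as the first sequencing run, against 70.6% to 80.7% in the knockdown libraries. The part of this mix in the differences between knockdown and control was not tested, and no member passed in either run alone.

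Whether SMARCD2 knockdown altered the ATRA response itself was tested by the difference of the log2 responses. No member passed the edgeR test, against 0.0488% of all tested genes. At an unadjusted p under 0.05 there were 3 of the 46 members, among 979 of the 12301 tested genes. DESeq2 and limma-voom called 0 members, with 48 and 2 of all 12301 genes called. The median difference, knockdown minus control, was 0.03. POLR1A had the widest, 0.42 ± 0.11 (adjusted p = 0.423), with log2 ratios of -0.60 in the control construct and -0.24 and -0.11 with the hairpins. WDR12 followed with 0.30 ± 0.12, HEATR1 with 0.24 ± 0.10 and UTP20 with 0.23 ± 0.10. For 43 members the 95% interval of this difference lay within 1.5-fold and for all 46 within 2-fold.

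The hairpins were then compared with each other over the 4 knockdown libraries. No member passed the edgeR test, against 2.03% of all tested genes, with 3 of the 46 members at an unadjusted p under 0.05, among 1380 of 12300 genes. FBL came nearest: with hairpin 2 it was below hairpin 1 at 120 against 143 CPM in DMSO and at 56.9 against 63.5 in ATRA, a log2 fold change of -0.20 ± 0.06 (adjusted p = 0.0748). Limma-voom called FBL (adjusted p = 0.025) among 441 of all 12300 genes. DESeq2 called 0 members, with 49 of all 12300 genes called. RRP12 (-0.18 ± 0.06), WDR43 (-0.16 ± 0.06) and LTV1 (-0.11 ± 0.06) were also lower with hairpin 2 in both treatments. The median log2 ratio of hairpin 2 to hairpin 1 over the members was -0.08 in DMSO, where 41 of 46 were lower with hairpin 2. In ATRA it was 0.00, and 22 were lower. These counts within a treatment were not made over all tested genes. The fit over both treatments gave 31 of the 46 members and 6035 of 12300 tested genes lower with hairpin 2. SMARCD2 itself was lower with hairpin 2, by a log2 fold change of -0.73 ± 0.07 (adjusted p = 3e-06).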

How the data were processed

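Gene counts from RNA-seq of NB4 cells, in 6 libraries, were the input. Per the labels' protocols, the GeneJET and NEBNext Ultra RNA kits served for RNA purification and library preparation. Per the submitters' processing notes, the processing involved the build GRCh37.p13, STAR, bcl2fastq, DESeq2 and Picard 2.5.0, in roles not stated there. The read counter and its use of strand are not given in the sources used here. For each treatment the authors deposited 1 table with raw counts in 2 columns per library, taken here as the 2 sequencing runs and summed. Per the file headers the tables also hold the authors' log2 fold change and adjusted p-value of knockdown against control. From these, only the members' values and the counts of genes named in the text were taken.

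The members and gene lists were chosen with earlier results of these data known. Genes in both tables were filtered with filterByExpr, scaled with TMM on the full table totals and tested over the whole table with edgeR 4.0.16 (quasi-likelihood test, Benjamini-Hochberg adjustment, threshold 0.05) in R 4.3.3. ATRA against DMSO and knockdown against control over both treatments came from a fit of state and treatment (3 residual degrees of freedom). Knockdown within a treatment and the difference in response came from a fit of 4 groups (2), which takes the spread of the single control libraries to equal that of the hairpins. The hairpins were compared with treatment as a term (1). Standard errors were obtained as the size of the log2 fold change over the square root of the F statistic. The scripts were tested on simulated data. DESeq2 1.42.0, limma 3.58.1, other scalings, no filter, single runs and left-out libraries were alternatives. Exon lengths and overlaps came from GENCODE v29, and figures were drawn with matplotlib 3.10.9.

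Values of every library were printed for the 8 members with the largest called ATRA change, the called member in the less common direction, the 3 with the smallest change and, where nothing was called, the 4 with the largest change on the same side in both hairpins. GNL2 and the genes named from the other ribosome biogenesis list were added after their values were seen. The constructs appear in both treatments. Their deviations from the treatment mean correlated between DMSO and ATRA (control r = 0.10, hairpin 1 r = 0.17, hairpin 2 r = 0.22). These lay just over the 0.1 set as the mark for pairing. The main fits did not pair the libraries of a construct, and a fit with the construct as a block was run as an alternative. Whether the libraries of a construct derive from the same transduced cells is not stated in the labels.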

Additional observations from a re-analysis of the deposited data

How the results depend on the processing

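In the ATRA comparison the number of lower members stayed between 37 and 44 over all alternatives run, and leaving out a library kept it between 37 and 39. Of all genes, 4650 were lower in the main fit. This number ran from 4221 without the hairpin 1 library in ATRA to 5722 with total counts. The number of higher members became 2 with RLE size factors and 2 with DESeq2, by the addition of DDX18. Scaling by total counts lowered the members' median to -0.59 together with that of all genes. Members near 0 turned sign: LTV1 to 0.0058 (RLE), 0.0060 (DESeq2) and 0.0824 (run 2 only), RRN3 to -0.1251 (total counts) and -0.0064 (run 1 only), DDX18 to -0.0416 (total counts) and RRS1 to 0.0248 (run 2 only), and with each library left out LTV1 ran from -0.0555 to 0.0511 and RRN3 from -0.0163 to 0.0309. RIOK2 was also not called with RLE, DESeq2 and run 1 only, and HEATR1 was called with run 2 only. Scaling by total counts also called lower 5 of the 6 members that had not passed: HEATR1 (-0.26, adjusted p = 0.00346), GNL2 (-0.22, 0.00192), RRS1 (-0.20, 0.0268), RRN3 (0.0312) and LTV1 (-0.14, 0.0459). The cause of these moves was not tested. In the comparison of the hairpins the count of called members became 1, FBL, with RLE size factors, limma-voom and run 1 only. Over all genes these settings called 382 of 12300, 441 of 12300 and 246 of 12297. The comparison of the hairpins could not be tested with a library left out, which leaves no residual degree of freedom. The knockdown comparisons and the difference in response called 0 members under every alternative run. A fit with the construct as a replicate block gave 39 lower and 1 higher member for ATRA and 0 members in the comparisons of knockdown with control within a treatment and of the response, so the pairing changed no call of a member. Over all 12301 genes the block fit called 116 for knockdown in DMSO, 348 in ATRA and 129 for the response. The main fit called 0, 1 and 6. All members were in both tables, so the planned fit for members in 1 table was not needed. Each knockdown comparison rests on 1 control library per treatment.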

Other observations

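With SMARCD2 knockdown in ATRA, most of the 46 members and most proteins of the finished cytosolic ribosome had fitted values of opposite sign. The edgeR log2 fold change was above 0 in 38 of the 46 members, with a median of 0.07. It was below 0 in 75 of the 81 cytosolic ribosomal protein genes, with a median of -0.12. The 125 other ribosome biogenesis genes were divided, with 65 above 0, 60 below and a median of 0.00. Of all 12301 tested genes 6298 were above 0. Single genes did not hold up: edgeR, DESeq2 and limma-voom each called 0 members and 0 ribosomal protein genes after adjustment. Over all 12301 genes they called 1, 52 and 1. In edgeR 4 members and 8 ribosomal protein genes had an unadjusted p under 0.05, among 1329 of all 12301 genes. The fit with the construct as a block called 4 of the 81 ribosomal protein genes, among 348 of all 12301 genes. The signs of the members and the ribosomal protein genes were alike in both count columns taken as sequencing runs. Their medians were 0.09 and -0.12 in run 1 and 0.07 and -0.14 in run 2. The size depended on the hairpin: the ribosomal protein median was -0.17 without hairpin 1 in ATRA and -0.08 without hairpin 2 in ATRA, where 67 of 81 were below 0, and 77 of the 81 genes were lower with hairpin 2 than with hairpin 1 over both treatments, 3 of them called. The signs rest on 1 control library, which all genes share, and no test was made between the lists. In DMSO the medians were 0.04 for the members and -0.01 for the ribosomal protein genes. Both turned sign with the library left out: they were -0.01 and -0.03 without hairpin 1 in DMSO, and 0.09 and 0.04 without hairpin 2.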
